A study of Mus musculus with 20 samples.

Results

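The chemokine ligands of the mouse were followed here across healthy bladder, bladder tumors and metastases of a genetically engineered mouse model. They were taken as every gene whose platform symbol is Ccl, Cxcl, Xcl or Cx3cl followed by digits, and 35 of the 30142 named genes on the array met this rule, each with 1 row of values. A further 5 ligand symbols (Ccl21a, Ccl21b, Ccl21c, Ccl21d and Ccl27b) occurred only in rows shared by several symbols and were not analysed here. RNA from 20 samples was hybridised to whole-transcript arrays, and values are on the log2 scale, where a difference of 1 is 2-fold. All mice were of the FVB/N strain. Among the alleles common to every group, controls included, were floxed Rb (Rbf/f) and the absence of p107 (p107-/-). The 5 control bladders were not inoculated. The 7 bladder tumors and 4 metastases came from mice whose bladder had received an adenovirus coding for Cre recombinase, the enzyme that excises floxed segments. The 3 treated bladders and 1 treated metastasis came from such mice given CM272, an inhibitor of the methyltransferases G9a and DNMT, at 5 mg/kg per day into the peritoneum over 30 days, with cisplatin (CDDP) weekly at 6 mg/kg. The labels give no ages, no organ for the metastases, no promoter that would restrict Cre to 1 cell type and no statement that each sample is another animal. The p-values below therefore refer to the spread of these samples alone, part of which may be technical.

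Chemokines are small secreted proteins that steer leukocytes along concentration gradients by binding G protein-coupled receptors. CXC ligands with an ELR motif draw neutrophils, the interferon-induced CXC ligands draw T and NK cells through CXCR3, and many CC ligands draw monocytes, eosinophils or lymphocytes. In the bladder they are made by urothelium, stromal cells and resident and incoming leukocytes. Their levels in a piece of tissue depend on which of these cells it holds. In such bulk samples, fewer cells of a type and less RNA per cell cannot be told apart.

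Inflammatory ligands are known for promoters with binding sites of NF-kappaB and of interferon-activated factors. The bases before the start site are shown for 4 ligands, chosen because they carry a motif searched and were highest in bladder tumor 6. Of the other ligands highest there, Ccl2, Ccl5, Ccl7 and Cxcl5 had no sequence on hand, and Cx3cl1 and Cxcl15 had no match. Ccl1, Ccl17, Ccl19 and Cxcl14 had a match and were highest in other arrays. They are RefSeq sequences of the assembly GRCm38.p6, written 5′ to 3′ in the direction of the gene, with motif matches in capitals.
Cxcl1 at chr5:90891135-90891244, plus strand: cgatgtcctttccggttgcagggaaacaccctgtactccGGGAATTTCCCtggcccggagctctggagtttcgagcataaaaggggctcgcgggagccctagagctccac
Cxcl2 at chr5:90903789-90903898, plus strand: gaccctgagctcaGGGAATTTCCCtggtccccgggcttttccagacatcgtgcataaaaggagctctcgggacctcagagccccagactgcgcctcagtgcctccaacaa
Cxcl3 at chr5:90785991-90786100, plus strand: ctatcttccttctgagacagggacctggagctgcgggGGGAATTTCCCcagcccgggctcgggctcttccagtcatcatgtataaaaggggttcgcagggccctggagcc
Cxcl10 at chr5:92348890-92349109, minus strand: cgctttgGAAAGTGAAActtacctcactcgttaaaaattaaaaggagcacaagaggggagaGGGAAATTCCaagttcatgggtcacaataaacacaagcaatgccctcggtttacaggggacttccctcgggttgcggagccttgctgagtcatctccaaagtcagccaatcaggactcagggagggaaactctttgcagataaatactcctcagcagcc

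The kappaB motif was searched on both strands as GGGA, any 2 bases and TTCC, and in Cxcl1, Cxcl2 and Cxcl3 it matched on both strands with an offset of 1 base, so that the capitals run over 1 base more than the motif. In Cxcl10 the first stretch of capitals is a match to GAAA, any 2 bases and GAAA, the core of an interferon-stimulated response element, and the second is the kappaB motif. RefSeq windows from 250 bases before to 50 bases after the start were on hand for 24 of the 35 ligands, as 27 windows. The kappaB motif was in 5 of these 27 windows (18.5%; Ccl1, Cxcl1, Cxcl2, Cxcl3 and Cxcl10), compared with 482 of all 32851 promoter windows (1.47%). The windows of Cxcl1, Cxcl2 and Cxcl3 lie close together on chromosome 5 and hold the same matched letters, so they may not be separate cases. This response element core was in 11.1% of the ligand windows (Ccl19, Cxcl10 and Cxcl14) and 3.44% of all windows. TTC, any 3 bases and GAA, the palindrome bound by STAT factors, was in 7.41% of the ligand windows (Ccl17 and Cxcl14) and 8.30% of all windows. A match is a description of these letters, and factor binding was not measured.

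Some arrays of each untreated group stood apart. In 8 of them (control bladders 4, 5 and 6, bladder tumors 3, 4 and 5, metastases 3 and 4) the deviations of all genes from the mean of the 20 arrays correlated with no other array above 0.14, while the other 12 had a highest correlation of 0.33 to 0.61. The former are called near-mean arrays below. They were picked by this lack of correlation alone. The median SD of all genes was 0.246 within them and 0.259 within the other 12. For the differences described most closely, values without them and within them stand beside the main value. Without them the control group is bladders 1 and 2, which read 10.8 and 10.9 for Xist, the RNA of the inactive X chromosome, against 4.47 to 6.44 elsewhere, so that sex and group cannot then be told apart. Uroplakin 1a, a defining protein of bladder lining cells, read 7.83 to 12.1 in control bladders and 8.10 to 11.1 in treated bladders. It read 5.37 to 13.9 in tumors, 5.31 to 7.87 in metastases and 4.29 in the treated metastasis, so the marker was low in some samples labelled bladder tumor. Within the near-mean arrays it read 7.83 to 8.11 in controls, 8.01 to 8.41 in tumors and 7.42 and 7.87 in metastases. The mean of 6 smooth muscle markers there was 6.78 to 7.06, and Xist read 5.82 to 6.09. These markers therefore do not tell the labelled tissues apart in the near-mean arrays.

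The ligands varied unequally among the arrays. Over the 20 arrays the median SD of the 35 ligands was 0.30, against 0.26 for all genes, and 7 ligands lay above the 95th percentile of all genes, an SD of 0.62. These were Cxcl13, Ccl8, Ccl6, Cxcl14, Ccl2, Ccl9 and Cxcl9. At the other end were Ccl1, a CCR8 ligand, with an SD of 0.117, Ccl27a, a skin-homing ligand, with 0.153, and Ccl4, a ligand of inflammation, with 0.154. The SD within the 8 near-mean arrays was below that within the other 12 for 26 of the 35 ligands, compared with 49.6% of all genes. Cxcl13 had an SD of 0.39 in the former and 2.04 in the latter. Cxcl14 had 0.29 and 1.29. Ccl17, a CCR4 ligand, went the other way with 0.46 and 0.29.

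**Figure D1:**
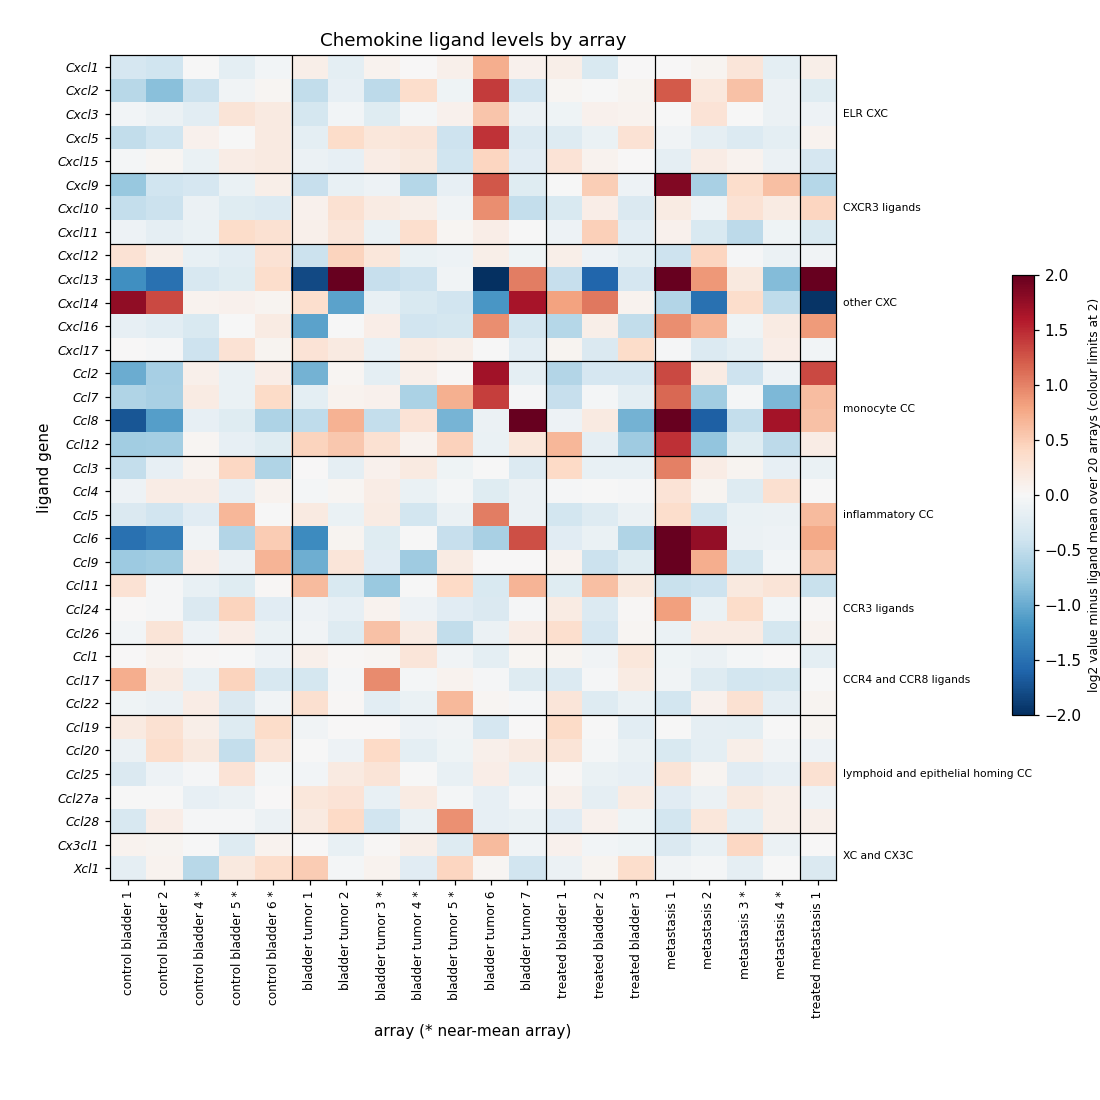
Deviation of each ligand (rows, grouped by role) from its own mean over the 20 arrays on the log2 scale (colour, saturated beyond 2 in either direction), with arrays as columns grouped by sample type. Bladder tumor 6 and metastasis 1 hold most of the cells over 1. Among the near-mean arrays, Ccl8 in metastasis 4 is the 1 such cell.

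High values gathered in a pair of arrays. Bladder tumor 6 held the highest value of 10 of the 35 ligands (28.6%, against 9.63% of all genes): Ccl2, Ccl5, Ccl7, Cx3cl1, Cxcl1, Cxcl2, Cxcl3, Cxcl5, Cxcl10 and Cxcl15. Metastasis 1 held that of 9 others (25.7%, against 8.64% of all genes): Ccl3, Ccl6, Ccl8, Ccl9, Ccl12, Ccl24, Cxcl9, Cxcl13 and Cxcl16. The ligands of bladder tumor 6 are mostly those for neutrophils and monocytes, and those of metastasis 1 include the monocyte and macrophage ligands Ccl6, Ccl8 and Ccl9 and the B cell ligand Cxcl13. Control bladder 1 held the lowest value of 7 ligands, while it held the lowest value of 2.72% of all genes.

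Markers of other cells moved with these arrays. The mean of 10 neutrophil markers was 6.94 in bladder tumor 6, the highest of all arrays, compared with 5.32 to 6.94 over all tumors and 4.86 to 5.93 in control bladders. Much of this mean comes from S100a8 and S100a9. Both read 12.0 in bladder tumor 6, against 4.07 to 8.40 and 5.59 to 9.45 in the other tumors. In bladder tumor 6 the mean of 5 fibroblast markers was also the highest of all (9.31), and that of 8 urothelial markers was the lowest (5.00). In metastasis 1 the mean of 10 macrophage and monocyte markers was 8.65, the highest of all arrays, against 5.59 to 6.68 in control bladders, 5.61 to 7.40 in tumors and 5.89 to 6.27 in treated bladders. The part of these cells in the ligand values was not tested.

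**Figure D2:**
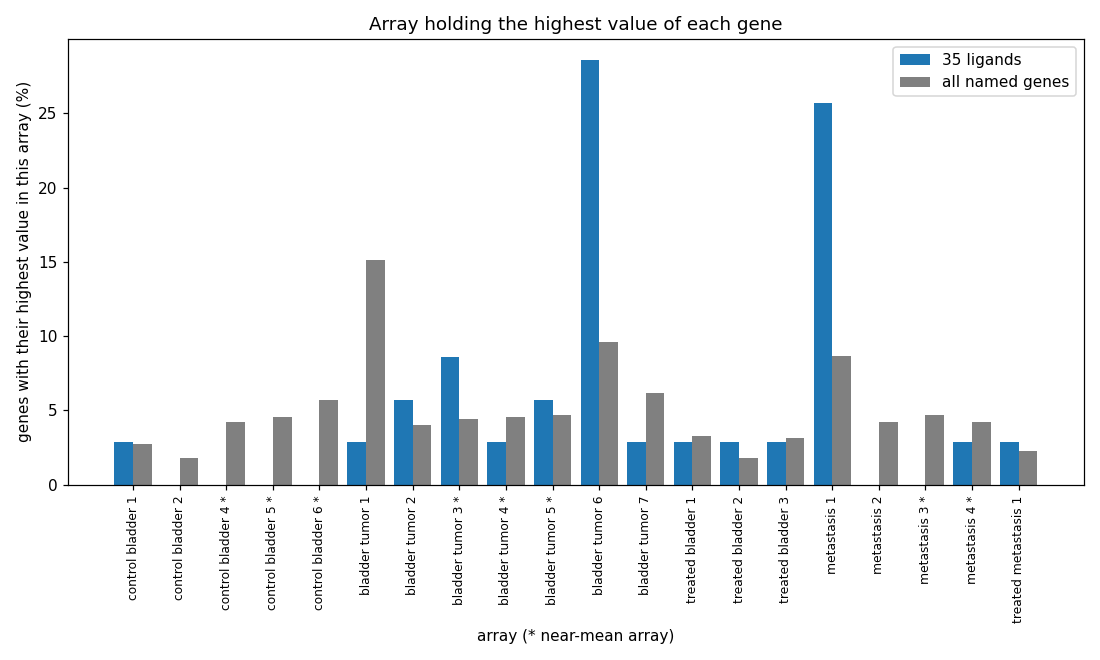
Share of the 35 ligands and share of all 30142 genes (percent, bars) whose highest value lies in each of the 20 arrays. The shares for ligands are 28.6% in bladder tumor 6 and 25.7% in metastasis 1, where all genes have 9.63% and 8.64%.

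The neutrophil-drawing CXC ligands, which act on CXCR2, were measured as Cxcl1, Cxcl2, Cxcl3, Cxcl5 and Cxcl15. Cxcl1 read 4.70, 4.63, 5.02, 4.83 and 4.96 in control bladders 1, 2, 4, 5 and 6, the order kept for controls throughout. Its tumor values ran from 4.83 through a median of 5.11 to 5.75, treated bladders read 5.15, 4.72 and 5.04, and metastases 1 to 4 read 5.03, 5.08, 5.27 and 4.82. Tumors and controls overlapped, with bladder tumor 6 alone among the tumors above 5.15. The tumor mean was higher than the control mean by 0.33 ± 0.13 (SE; 5.16 ± 0.28, SD, n = 7, against 4.83 ± 0.17, n = 5), with an unadjusted limma p of 0.0254 and an adjusted p of 0.999. Without bladder tumor 6 the difference was 0.23, without the near-mean arrays 0.55, and within them 0.15.

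Cxcl2 reads followed the same arrays. It read 4.63, 4.35, 4.75, 5.10 and 5.21 in controls and 4.66 to 6.57 with a median of 5.01 in tumors. Treated bladders lay close together at 5.22, 5.17 and 5.24, and metastases read 6.41, 5.39, 5.76 and 5.06. Metastasis 1 and bladder tumor 6 stood above all other samples. Metastases exceeded controls by 0.85 ± 0.33 (95% interval 0.15 to 1.54), with an unadjusted limma p of 0.0207 and an adjusted p of 0.676. Leaving out metastasis 1 gave 0.59, leaving out the near-mean arrays 1.41, and the near-mean arrays alone 0.39. Cxcl5, a ligand made by epithelia, reached 7.08 in bladder tumor 6 and 5.21 to 5.99 in the other tumors. Cxcl3 reached 6.28 there and 5.38 to 5.82 in the other tumors. Cxcl15, a ligand known from lung, read 4.30 to 5.12 over all arrays and was again highest there.

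Cxcl9, Cxcl10 and Cxcl11 are induced by interferons and share the receptor CXCR3 on activated T cells. Cxcl10 read 4.60, 4.65, 4.97, 4.84 and 4.81 in controls, and in metastases 5.26, 5.02, 5.37 and 5.24. Every metastasis lay above every control. Tumors spanned 4.61 to 6.02 with a median of 5.20, and treated bladders read 4.78, 5.21 and 4.79. Thus 6 of the 7 tumors read above the highest control, and bladder tumor 7 read 4.61. The tumor mean exceeded the control mean by 0.46 ± 0.17 (95% interval 0.11 to 0.82), with an unadjusted limma p of 0.0137 and an adjusted p of 0.999. This became 0.33 without bladder tumor 6, 0.67 without the near-mean arrays and 0.28 within them. The metastasis mean exceeded the control mean by 0.45 ± 0.19 (unadjusted limma p 0.0324, adjusted 0.686), with 0.44 without metastasis 1, 0.51 without the near-mean arrays and 0.44 within them. The treated mean lay below the tumor mean (difference -0.31 ± 0.20, 95% interval -0.73 to 0.11), and without bladder tumor 6 this difference was -0.18.

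Cxcl9 read 4.83, 5.19, 5.24, 5.45 and 5.70 in controls and 5.57, 6.07 and 5.48 in treated bladders. Metastases read 7.44, 4.94, 5.93 and 6.19, and tumors 5.01 to 6.82 with a median of 5.43. Metastasis 1 and bladder tumor 6 stood above the rest, and the groups overlapped. Metastases exceeded controls by 0.84 ± 0.39 (unadjusted limma p 0.0456, adjusted 0.701), and by 0.40 without metastasis 1. Without the near-mean arrays this was 1.18, and within them 0.59. Treated bladders exceeded controls by 0.42 ± 0.43, by 0.70 without the near-mean arrays and by 0.24 without treated bladder 2. Cxcl11 read 4.46, 4.39, 4.44, 4.94 and 4.88 in controls, 4.44 to 4.91 with a median of 4.66 in tumors, 4.47, 5.05 and 4.36 in treated bladders and 4.65, 4.27, 4.05 and 4.48 in metastases. It did not follow the other CXCR3 ligands: its metastasis mean was the lower one (difference from tumors -0.31 ± 0.15, unadjusted limma p 0.0571, adjusted 0.825), and metastases and tumors overlapped.

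**Figure D3:**
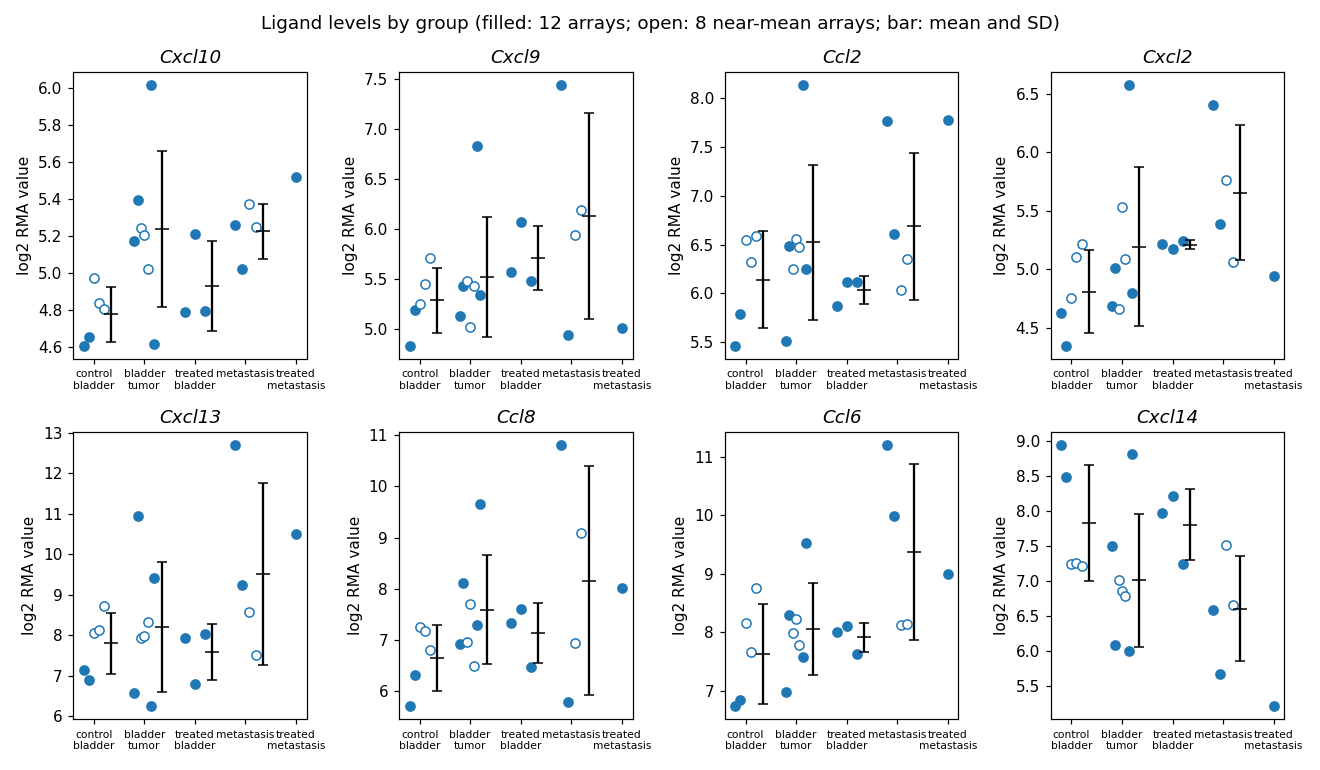
Log2 level of 8 ligands (1 panel each) in the arrays of each group, with filled points for the 12 arrays, open points for the 8 near-mean arrays and bars for the group mean and SD. All 4 metastases lie above all 5 controls for Cxcl10, and metastasis 1 lies far above the other arrays for Cxcl13.

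The other CXC ligands had the widest spread. Cxcl13, which organises B cell follicles through CXCR5, read 7.15, 6.89, 8.06, 8.13 and 8.72 in controls, 7.91, 6.79 and 8.04 in treated bladders and 12.69, 9.24, 8.57 and 7.51 in metastases. Tumors ran from 6.25 through a median of 7.97 to 10.95, with the lowest value of all arrays in bladder tumor 6, the array that was highest for the neutrophil ligands. Metastases exceeded tumors by 1.31 ± 0.86 (95% interval -0.51 to 3.12). This was within their spread, and became 0.24 without metastasis 1, 2.67 without the near-mean arrays and -0.03 within them. The mean of 5 B and plasma cell markers was 5.25 in metastasis 1 and 5.50 in the treated metastasis, where Cxcl13 read 10.5. This mean ran from 4.86 to 5.32 in controls and from 4.91 to 5.89 in tumors, with the highest of all arrays in bladder tumor 1. The part of these cells in the Cxcl13 values was not tested.

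Cxcl14, a ligand that healthy epithelia make constitutively, read 8.94, 8.49, 7.24, 7.25 and 7.22 in controls and 7.97, 8.21 and 7.24 in treated bladders. Tumors spanned 6.00 to 8.82 with a median of 6.86, metastases read 6.58, 5.67, 7.52 and 6.65, and the treated metastasis read 5.21, the lowest of all arrays. The metastasis mean was lower than the control mean (difference -1.22 ± 0.52, 95% interval -2.31 to -0.14, unadjusted limma p 0.029, adjusted 0.685). Metastasis 3 overlapped the controls. The difference was -2.59 without the near-mean arrays and -0.15 within them. The mean of the urothelial markers was 6.59 to 8.29 in controls and 5.23 to 6.65 in metastases, and their part in the difference was not tested. Treated bladders exceeded tumors by 0.80 ± 0.53 (95% interval -0.32 to 1.91), within the spread of the tumors.

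Cxcl16, made as a membrane-bound scavenger receptor by macrophages, read 6.56, 6.52, 6.42, 6.72 and 6.89 in controls and 7.66, 7.40, 6.64 and 6.88 in metastases. Tumors ran from 5.66 through 6.37 to 7.65, treated bladders read 6.16, 6.85 and 6.24, and the treated metastasis 7.58. Metastases exceeded tumors by 0.58 ± 0.28 (unadjusted limma p 0.0502, adjusted 0.825), with 0.41 without metastasis 1, 0.93 without the near-mean arrays and 0.24 within them. Cxcl12, the stromal ligand of CXCR4, was among the steadier ligands. It read 7.26, 7.08, 6.81, 6.75 and 7.25 in controls, 6.53 to 7.41 with a median of 6.87 in tumors, 7.08, 6.86 and 6.77 in treated bladders and 6.55, 7.40, 6.94 and 6.84 in metastases. Its treated bladders differed from tumors by -0.06 ± 0.19 (95% interval -0.46 to 0.33). The mucosal ligand Cxcl17 read 5.27 to 6.06 over all arrays.

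Ccl2, Ccl7, Ccl8 and Ccl12 draw monocytes, in part through CCR2. All 4 had a higher mean in tumors than in controls (median of the differences 0.50) and all 4 a lower mean in treated bladders than in tumors (median -0.44). None of these differences was called, and both comparisons share the tumors. Ccl2 read 5.46, 5.78, 6.55, 6.32 and 6.59 in controls and 5.87, 6.12 and 6.11 in treated bladders. Tumors ran from 5.51 through 6.48 to 8.14, with bladder tumor 6 alone above 6.56, and metastases read 7.76, 6.61, 6.03 and 6.35. The treated mean lay below the tumor mean (difference -0.49 ± 0.42, 95% interval -1.38 to 0.39), and without bladder tumor 6 the difference was -0.22. Ccl7 read 5.67, 5.62, 6.43, 6.14 and 6.66 in controls, 5.64 to 7.65 with a median of 6.34 in tumors, 5.81, 6.23 and 6.07 in treated bladders and 7.42, 5.58, 6.24 and 5.37 in metastases. It was highest in bladder tumor 6 and next in metastasis 1, and all groups overlapped.

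Ccl8 was the most variable of them. It read 5.72, 6.33, 7.26, 7.18 and 6.80 in controls, 7.33, 7.61 and 6.48 in treated bladders, 10.80, 5.80, 6.95 and 9.10 in metastases and 6.49 to 9.66 with a median of 7.30 in tumors. Metastases 1 and 4 and bladder tumor 7 stood above 9. The metastasis mean was 0.57 ± 0.73 above the tumor mean, and without metastasis 1 the sign turned (-0.31). The difference was 0.30 without the near-mean arrays and 0.97 within them. Ccl12 read 4.48, 4.50, 5.22, 5.01 and 4.93 in controls and 5.05 to 5.72 with a median of 5.49 in tumors. Bladder tumor 6, at 5.05, was the only tumor within the range of the controls. The tumor mean exceeded the control mean by 0.62 ± 0.31 (95% interval -0.02 to 1.27, unadjusted limma p 0.0576, adjusted 0.999), with 0.96 without the near-mean arrays and 0.40 within them. Treated bladders read 5.84, 5.00 and 4.47, and metastases 6.63, 4.39, 4.94 and 4.66, so both of these groups were wider than the tumors.

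Ccl3, Ccl4, Ccl5, Ccl6 and Ccl9 are inflammatory ligands that draw monocytes, macrophages and T cells. Ccl6, made by myeloid cells of rodents, read 6.74, 6.85, 8.16, 7.66 and 8.75 in controls and 8.01, 8.10 and 7.63 in treated bladders. Metastases read 11.19, 9.99, 8.13 and 8.14, and tumors 6.99 to 9.52 with a median of 7.99. Metastases 1 and 2 were higher than every other untreated sample, and metastases 3 and 4 lay among the controls and tumors. The metastasis mean exceeded the control mean by 1.73 ± 0.59 (95% interval 0.50 to 2.96, unadjusted limma p 0.00847, adjusted 0.676) and the tumor mean by 1.31 ± 0.55 (0.16 to 2.46, unadjusted p 0.028, adjusted 0.825). Without metastasis 1 these were 1.12 and 0.70. Without the near-mean arrays they were 3.80 and 2.50, and within them -0.06 and 0.13. Macrophage markers were high in the same arrays: their mean ran from 6.43 to 8.65 in metastases, and their part in the Ccl6 difference was not tested.

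Ccl9, a CCR1 ligand next in rank, read 6.37, 6.40, 7.24, 6.98 and 7.79 in controls, 7.17, 6.67 and 6.85 in treated bladders and 9.09, 7.83, 6.74 and 7.05 in metastases. Tumors lay between 6.12 and 7.34 with a median of 7.10. Among the metastases, numbers 1 and 2 exceeded all tumors. The difference from tumors was 0.79 ± 0.37 (unadjusted limma p 0.0465, adjusted 0.825), with 0.32 without metastasis 1, 1.54 without the near-mean arrays and 0.06 within them. Ccl5, secreted by T and NK cells, read 5.14, 5.03, 5.20, 6.08 and 5.40 in controls, 5.05 to 6.44 with a median of 5.31 in tumors, 5.05, 5.17 and 5.29 in treated bladders and 5.77, 5.05, 5.28 and 5.30 in metastases. Bladder tumor 6 and control bladder 5 were high, and no group stood apart. Its treated mean was below the tumor mean (difference -0.34 ± 0.25, 95% interval -0.87 to 0.19), and the difference was -0.19 without bladder tumor 6. Ccl3 was highest in metastasis 1 (6.60) and read 5.00 to 6.01 in all other arrays, and Ccl4 read 4.83 to 5.41.

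Ccl11, Ccl24 and Ccl26 draw eosinophils through CCR3. Ccl24 read 5.19, 5.15, 4.89, 5.62 and 4.94 in controls, 4.89 to 5.24 with a median of 5.08 in tumors, 5.33, 4.90 and 5.19 in treated bladders and 6.00, 5.05, 5.54 and 5.13 in metastases. Metastases 1 and 3 lay above all tumors. The metastasis mean exceeded the tumor mean by 0.37 ± 0.16 (unadjusted limma p 0.0373, adjusted 0.825), by 0.18 without metastasis 1, by 0.49 without the near-mean arrays and by 0.24 within them. Ccl11 read 4.84 to 6.25 and was highest in bladder tumor 7. Ccl26 read 4.85 to 5.93.

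Ccl17 and Ccl22 act on CCR4 of regulatory and helper T cells, and Ccl1 on CCR8. Ccl17 read 5.95, 5.38, 5.06, 5.67 and 4.89 in controls, 4.87 to 6.17 with a median of 5.19 in tumors, 4.95, 5.20 and 5.38 in treated bladders and 5.15, 4.96, 4.85 and 4.86 in metastases. Bladder tumor 3 and control bladder 1 were highest. Treated bladders differed from controls by -0.22 ± 0.25 (95% interval -0.74 to 0.31). This was -0.49 without the near-mean arrays, and with 1 array left out it ran from -0.34 (without control bladder 6) to -0.075 (without control bladder 1). Ccl22 read 4.37 to 5.39 and Ccl1 4.53 to 4.97. The ligands of lymphoid and epithelial homing, Ccl19, Ccl20, Ccl25, Ccl27a and Ccl28, each had a lower mean in metastases than in tumors, with differences from -0.16 to -0.02. Ccl19 and Ccl27a lie in a gene family with near-identical copies, so their values are uncertain. Of these ligands Ccl28, made by mucosal epithelia, spread most, from 4.39 to 5.68. Xcl1, the ligand of cross-presenting dendritic cells, read 4.83 to 5.90, and the membrane-bound Cx3cl1 4.67 to 5.60 with its highest value in bladder tumor 6.

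Over all ligands the comparison of tumors with controls covers tumor formation together with the adenovirus inoculation, which controls did not receive. These cannot be told apart here. Sex is unequal too: Xist read 10.8 and 10.9 in control bladders 1 and 2, and 4.52 to 6.09 in tumors. Both limits also hold for the other comparisons with controls. Of the 35 ligands 24 had a higher and 11 a lower mean in tumors, with a median difference of 0.07 against 0.01 for all genes. By limma at an adjusted p under 0.05, 0 ligands and 0% of all 30142 genes were called. At an unadjusted p under 0.05 there were 2 ligands (Cxcl10 and Cxcl1), while 4.28% of all genes passed. Leaving out 1 array gave 1 (without control bladder 1 or 2) to 4 ligands (without treated bladder 1). Of all genes 965, 907 and 1267 then passed, against 1291 in the main fit. No ligand separated the groups without overlap, compared with 0.106% of all genes higher and 0.073% lower. The CXCR3 ligands were 3 of 3 higher (median 0.24), the monocyte ligands 4 of 4, and the neutrophil ligands 3 of 5 (median 0.33). In these tumors 9 of 10 neutrophil markers and 10 of 10 macrophage markers had a higher mean than in controls (medians 0.27 and 0.26). A lower mean was seen for 7 of 8 urothelial markers (-0.30) and 6 of 6 smooth muscle markers (-1.05, the largest median among the marker lists). None was called, and the part of these cells in the ligand differences was not tested.

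**Figure D4:**
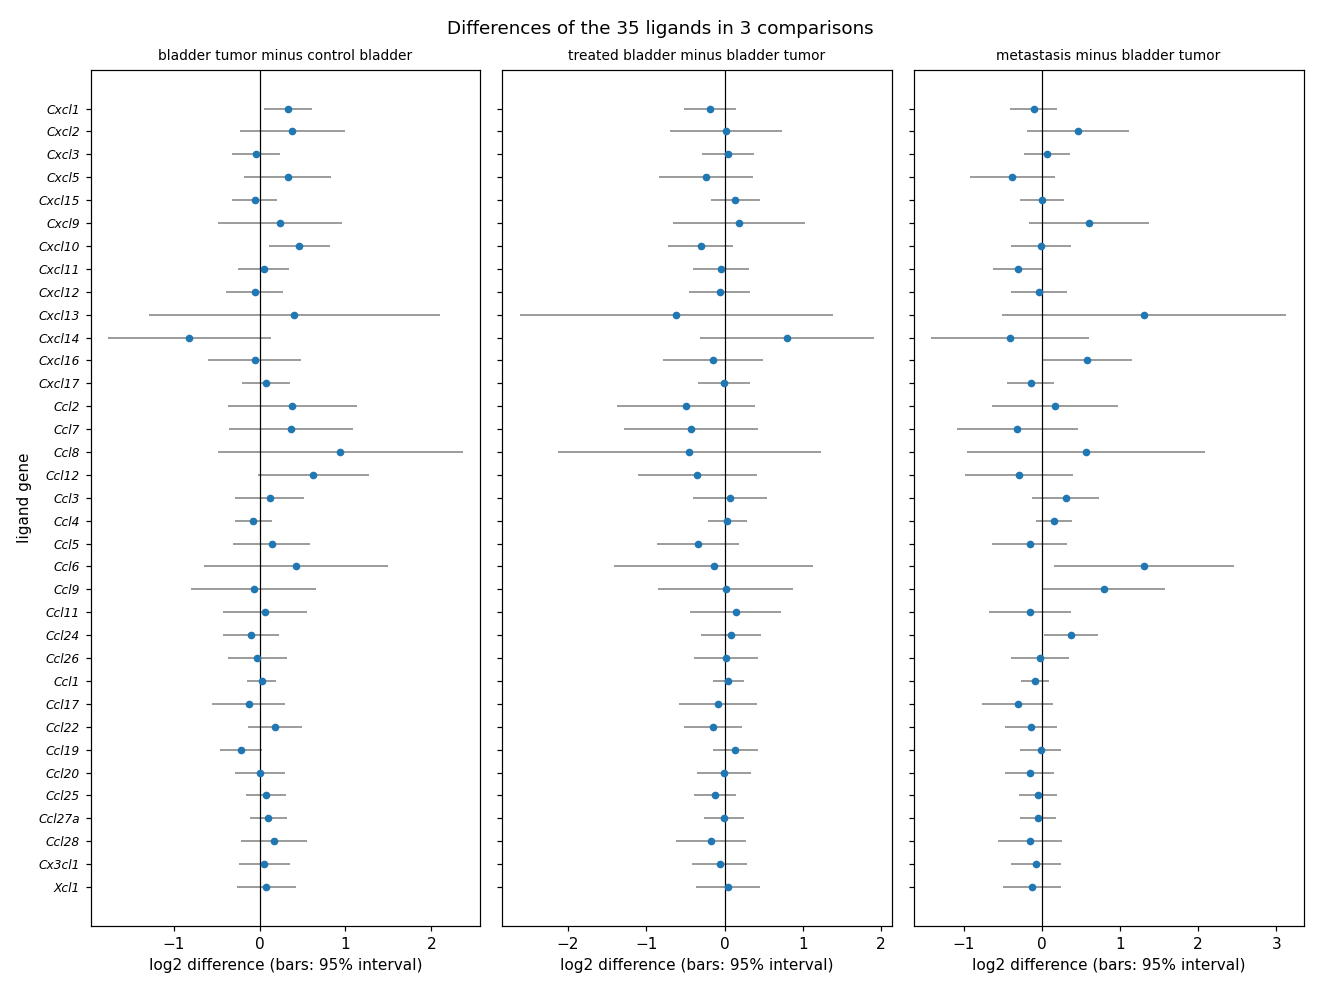
Difference of group means on the log2 scale for each ligand (points, with 95% intervals from limma as bars) in 3 comparisons: tumors minus controls, treated bladders minus tumors, and metastases minus tumors. Most intervals include 0, and the widest belong to Cxcl13 and Ccl8.

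The comparison of treated bladders with tumors asks what differs after CM272 with cisplatin. Here 14 ligands had a higher and 21 a lower mean in treated bladders, with a median difference of -0.05 against -0.00 for all genes. By limma 0 ligands and 0% of all genes were called, and at an unadjusted p under 0.05 there were 0 ligands and 0.488% of all genes (147). Without bladder tumor 7 there were 2 ligands and 316 of all genes. No ligand separated the groups (0.133% of all genes did so higher and 0.0332% lower). The 3 with the smallest p were Cxcl10, Cxcl14 and Ccl5. The interval for Ccl8, -2.13 to 1.23, shows the precision that 3 treated bladders allow. All 10 macrophage markers (median -0.35) and all 5 fibroblast markers (-0.39) had a lower mean in treated bladders, and 6 of 6 smooth muscle markers a higher one (0.70). Their part in the ligand differences was not tested.

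Treated bladders against controls gave 18 ligands with a higher and 17 with a lower mean, with a median of 0.00. By limma 0 ligands and 0% of all genes were called, and 0 ligands against 0.763% of all genes had an unadjusted p under 0.05. All 5 neutrophil ligands and all 3 CXCR3 ligands had a higher mean, by 0.01 to 0.40 and by 0.00 to 0.42. Cxcl2 led the former with 0.40 ± 0.36, and with 0.72 without the near-mean arrays. No ligand separated the groups (0.717% and 0.478% of all genes).

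Metastases against tumors gave 12 ligands with a higher and 23 with a lower mean, with a median of -0.05 against -0.03 for all genes. With arrays centred on their medians the split was 18 to 17. By limma 0 ligands and 0% of all genes were called, and 3 ligands (Ccl6, Ccl24 and Ccl9) had an unadjusted p under 0.05, as had 6% of all genes. Leaving out 1 array gave 1 (without bladder tumor 1) to 5 ligands (without bladder tumor 6 or metastasis 4). Of all genes 1451, 2944 and 2069 then passed, against 1810 in the main fit. No ligand separated the groups (0.156% and 0.358% of all genes). Of the 5 inflammatory CC ligands (Ccl3, Ccl4, Ccl5, Ccl6 and Ccl9) 4 had a higher mean (median 0.30), while 0 of 3 CCR4 and CCR8 ligands and 0 of 5 homing ligands did. All 10 macrophage markers had a higher mean in metastases (median 0.73), and all 6 smooth muscle markers a lower one (-0.76). None was called, and their part in the ligand differences was not tested.

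Metastases against controls gave the widest differences, from -1.22 for Cxcl14 to 1.73 for Ccl6, with 20 ligands higher and 15 lower (median 0.02). By limma 0 ligands and 0% of all genes were called. At an unadjusted p under 0.05 there were 5 ligands (Ccl6, Cxcl2, Cxcl14, Cxcl10 and Cxcl9), as were 7.12% of all genes (2146). Without metastasis 1 there were 0 ligands, while 1487 of all genes passed. Without control bladder 2 there was 1 ligand (1552 of all genes), and without control bladder 1 there were 2 (1671). Cxcl10 was the 1 ligand whose groups did not overlap, higher in metastases, as did 0.995% of all genes, and 0 ligands did so lower, against 1.95%. All 10 macrophage markers had a higher mean in metastases (median 1.03). A lower mean was seen for 7 of 8 urothelial markers (-1.10) and 6 of 6 smooth muscle markers (-1.84), with none called and their part not tested.

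The treated metastasis is 1 array and has no replicate check. It read above the range of the 4 untreated metastases for 7 ligands (14.4% of all genes did): Ccl2, Ccl5, Ccl17, Ccl19, Ccl25, Cxcl5 and Cxcl10. It read below that range for 5 (19.1% of all genes): Ccl1, Cxcl2, Cxcl14, Cxcl15 and Xcl1. Ccl2 read 7.77, above the mean of the untreated metastases by 1.08, Ccl5 6.05 (0.70 above) and Cxcl10 5.52 (0.29 above). Cxcl14 read 5.21, a difference of -1.40, and Cxcl2 4.94, a difference of -0.71. Cxcl13 read 10.5 and Ccl8 8.01, both inside the range. Its macrophage marker mean, 7.85, was second only to metastasis 1, and its fibroblast marker mean was 9.13.

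The receptors give the other side of the system. Of 23 receptors listed, 20 were analysed and none was called in any comparison. Their means were higher for 9 and lower for 11 in tumors against controls (median -0.04), 10 and 10 in treated bladders against tumors, 6 and 14 in metastases against tumors, and 7 and 13 in metastases against controls (median -0.13). Ccr3, the eosinophil receptor, had the smallest p in tumors against controls (5.09 ± 0.33, n = 7, against 4.63 ± 0.16, n = 5; unadjusted limma p 0.0131, adjusted 0.999). Cxcr2, the receptor of the neutrophil ligands, ran from 5.36 to 7.28 in tumors (median 5.51) and 5.14 to 5.80 in controls (median 5.67). The 7.28 was bladder tumor 6, and all other tumors lay within the range of the controls. Ccrl2, a receptor that binds chemoattractants without signalling, had the smallest p in metastases against tumors, with a difference of 0.44 (5.41 ± 0.12, n = 4, against 4.97 ± 0.21, n = 7; unadjusted limma p 0.00319, adjusted 0.825). Cxcr4, the receptor of Cxcl12, had a higher mean in metastases than in tumors by 0.89 (unadjusted limma p 0.0726, adjusted 0.831) and than in controls by 1.33 (unadjusted p 0.0152, adjusted 0.676), while Cxcl12 itself differed by -0.04 and -0.10.

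Ligands that share a source or a receptor were compared over the 12 arrays that are not near-mean, as 10 pairs, with p-values from 100000 permutations adjusted over the pairs. These arrays come from all 5 groups, so a shared difference between groups enters each correlation and its p-value. The pairs and the arrays were also chosen with earlier results of these data known, so the p-values are descriptive. Cxcl14 and Krt5, the keratin of basal urothelium, gave r = 0.889 (permutation p 0.00037, adjusted 0.00275) and rho = 0.888 (permutation p 0.00034, adjusted 0.0034). Without the treated metastasis and metastasis 2, the arrays farthest from the median of Cxcl14, r was 0.841. In the 8 near-mean arrays, where both genes spread little, r was -0.587. Ccl2 and Ccl7, neighbours in the monocyte group, gave r = 0.883 (permutation p 0.00055, adjusted 0.00275), rho = 0.685 (adjusted 0.0744) and r = 0.788 without the farthest 2. Cxcl10 and Ccl5 gave r = 0.832 (permutation p 0.00101, adjusted 0.00337), rho = 0.664 (adjusted 0.0744) and r = 0.660 without the farthest 2. In the near-mean arrays these pairs gave 0.150 and -0.436.

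For the neutrophil ligands r was lower without the farthest 2 arrays. Cxcl5 with the neutrophil protein gene S100a9 gave r = 0.745 (permutation p 0.00575, adjusted 0.0144) and rho = 0.545 (adjusted 0.146), but 0.338 without bladder tumors 6 and 2. Cxcl2 with S100a9 gave r = 0.707 (permutation p 0.0101, adjusted 0.0203), rho = 0.580 (adjusted 0.131) and 0.530 without bladder tumor 6 and metastasis 1. Cxcl1 with Cxcl2 gave r = 0.663 (permutation p 0.0217, adjusted 0.0362), rho = 0.392 (adjusted 0.263), and 0.137 without bladder tumor 6 and control bladder 2, so that this relation rests on those arrays. The other pairs had adjusted permutation p-values above the threshold of 0.05. Ccl3 with Ccl4 gave r = 0.599 and Cxcl16 with Ccl6 r = 0.579 (both adjusted 0.066), Cxcl9 with Cxcl10 r = 0.513 (adjusted 0.0982) and Cxcl12 with the smooth muscle actin Acta2 r = 0.147 (adjusted 0.643).

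**Figure D5:**
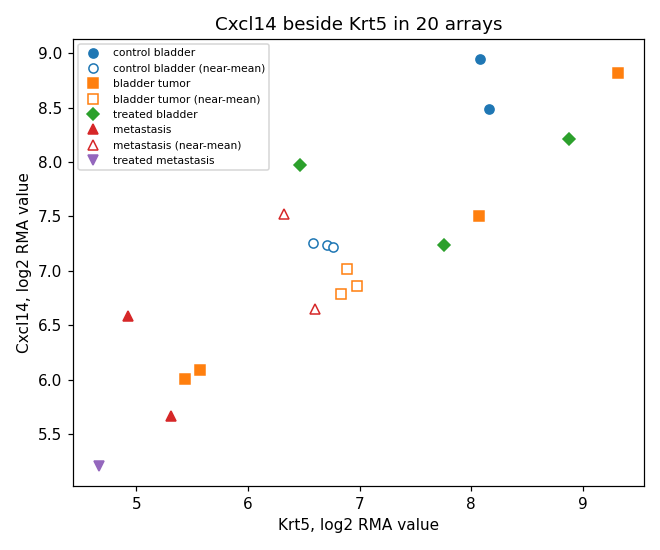
Log2 level of Cxcl14 (vertical) against that of Krt5 (horizontal) in the 20 arrays, coloured by group, with the near-mean arrays drawn apart. Over the 12 other arrays r is 0.889, and the treated metastasis lies lowest on both axes.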

How the data were processed

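Total RNA extracted with a kit for formalin-fixed tissue was labelled from 12 ng, per the labels' protocols. Per the submitters' processing notes, the authors obtained the deposited log2 values by RMA in Affymetrix Expression Console. Its version was not given in the sources used here. The method normalizes between arrays, so these values do not give amounts of total RNA, and array medians still ran from 5.07 to 5.42. The number of arrays limits the precision. In 284 of 65956 rows values exceed the log2 range of a 16-bit scanner, so a further step for those rows is unknown. Signal over background was not computed here.

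Rows were named through the platform annotation: 30604 had 1 symbol, 33206 were unnamed and the 2146 with several symbols were set aside. Of the 22818 rows looked up by gene ID in RefSeq's table, 827 were updated. For 355 genes with several rows the one with the highest mean was kept. limma 3.58.1 in R 4.3.3 fitted group means (lmFit, eBayes) to the 19 arrays of 4 groups, with no covariates, two-sided p-values and Benjamini-Hochberg adjustment over 30142 genes in each of 5 comparisons. A gene was called at an adjusted p under 0.05. The fit was tested on simulated data.

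Near-mean arrays were those with no correlation of gene deviations above 0.2 with any other array. The main fit did not treat samples with the same number as pairs. Between groups, the 20 pairs with the same number had correlations from -0.51 to 0.44, with 3 over 0.1. Of 111 pairs with different numbers, 30 were over 0.1. This check cannot exclude a shared animal, since near-mean arrays correlate with no other array above 0.2. The labels do not say that numbers mark a shared animal or litter.

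Ligands given in full were the 10 with the largest SD, the 3 with the smallest p in each comparison, and 8 by role. Of receptors and markers, the genes with the smallest p in a comparison could be named. Cxcl3, Cxcl5, Cxcr2, Cxcr4 and Upk1a were named after their values were seen. Members, lists, pairs and near-mean arrays were chosen with earlier results of these data known. Listed genes not analysed here include Ackr2, Ackr3, Trac, Gp1bb, Pdgfra and Gata3. Alternatives tried were array weights, a trended and robust prior, centring, quantile normalization once more, no dim genes, mean of rows, the 2 groups alone, the replicate block, leaving out each array or the near-mean arrays, and the near-mean arrays alone.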

Additional observations from a re-analysis of the deposited data

Results flagged for a closer look

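In 5 of the 54 combinations of ligand and group tested, the highest or lowest array lay far from the rest by Dixon's criterion. Its usual rate of about 1 in 20 groups does not apply here. The ligands tested were chosen in part for a large SD over these same arrays, and flags in the same array are not separate events. All 5 were high values among the 7 bladder tumors. In bladder tumor 6, Ccl2 read 8.14 against 5.51 to 6.56 in the other tumors, and Ccl5 read 6.44 against 5.05 to 5.60. In the same array Cxcl9 read 6.82 against 5.01 to 5.48, and Cxcl1 read 5.75 against 4.83 to 5.15. In bladder tumor 3, a near-mean array, Ccl17 read 6.17 against 4.87 to 5.29.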

How the results depend on the processing

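No alternative called a ligand in any comparison, and the smallest adjusted p of a ligand in any of them was 0.169. At an unadjusted p under 0.05 the counts were 2 for tumors against controls, 3 for metastases against tumors and 5 for metastases against controls. With array weights these were 6, 3 and 12 (of all genes 3141, 1966 and 3899, against 1291, 1810 and 2146 in the main fit). Without the near-mean arrays they were 3, 3 and 8 (of all genes 1161, 1645 and 2243), and in them alone 1, 2 and 2 (1615, 1516 and 1581). Without dim genes, those with a mean no higher than the median gene, 20 ligands were left. Cxcl10, Cxcl1, Cxcl2, Ccl12, Ccl24, Ccl17 and Cxcl11 were not among them. The counts were then 0, 2 and 3 (611, 891 and 1245 of 15071 genes). The median difference of the ligands for tumors against controls was 0.14 with array weights, 0.17 without the near-mean arrays and -0.024 in them alone. For treated bladders against controls it was 0.085 with array weights and 0.10 without the near-mean arrays, and for metastases against controls 0.22 without and -0.043 in them alone. With 1 array left out, the medians ran from 0.06 to 0.13 for tumors against controls, -0.11 to -0.016 for treated bladders against tumors, -0.00042 to 0.070 for treated bladders against controls, -0.09 to -0.01 for metastases against tumors and -0.00 to 0.05 for metastases against controls. For the named ligands, 491 differences recomputed with 1 array left out kept their direction and 3 turned. Under the other settings 239 kept it and 2 turned. Many of these differences could not turn. Leaving out an array outside the 2 groups compared leaves a difference of means unchanged. So do the trended and robust prior, the fit of the 2 groups alone, and the mean of rows for ligands with 1 row.

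With the replicate number as a block 0 ligands were called in every comparison. At an unadjusted p under 0.05 there were 3 for tumors against controls (1831 of all genes). There were 5 for metastases against tumors (2152 of all genes) and 9 for metastases against controls (2563). The median became 0.12 for tumors against controls, -0.06 for treated bladders against tumors, 0.11 for treated bladders against controls, -0.06 for metastases against tumors and 0.09 for metastases against controls.

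The sign turned for Cxcl12 in treated bladders against tumors (0.0095 without bladder tumor 2, and also without treated bladder 3, range with 1 array left out -0.15 to 0.0095), for Ccl8 in metastases against tumors (-0.31 without metastasis 1, range -0.31 to 1.35), and in the near-mean arrays alone for Cxcl13 in metastases against tumors (-0.026) and Ccl6 in metastases against controls (-0.055). In those arrays r also turned for Cxcl10 with Ccl5 (-0.436), Cxcl5 with S100a9 (-0.0424), Cxcl14 with Krt5 (-0.587), Ccl3 with Ccl4 (-0.441) and Cxcl12 with Acta2 (-0.333), an alternative added after seeing the data. No treated sample is a near-mean array, so that alternative gave no value for the treated comparisons. The cause was not tested. The number of arrays limits all of these values.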
